A study of Drosophila melanogaster with 21 samples.

Results

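The genes described here encode the aminoacyl-tRNA synthetases of Drosophila melanogaster. They were taken by name alone, as every gene called by a 3-letter amino acid code followed by RS, plus GluProRS, with or without the suffix -m that marks a mitochondrial enzyme. The rule found 33 of 17555 named genes present in both expression tables, of which 18 lack the suffix and are called cytosolic here and 15 carry it. For 12 amino acids both a cytosolic and a mitochondrial gene were found. All 33 genes had an adjusted p in each of the 5 comparisons below.

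Expression was measured in DL1 cells, a cultured D. melanogaster line, by ClickSeq of poly(A) RNA, in 7 groups of 3 samples that the labels call biological replicates. In the knockdown experiment, cells took up 20 µg of double-stranded RNA during a bath of 60 min and were harvested after 48 h, and the groups were Pum RNAi, Not1 RNAi, Pop2 RNAi and, as a non-targeting control, LacZ RNAi against the E. coli gene. In the knockout experiment, the groups were PumKO1 and PumKO2, each 1 clonal isolate knocked out for pum per the labels, and WT, the line from which both came. The spread within PumKO1 or PumKO2 therefore does not include differences between isolates, the 3 knockdowns share the LacZ RNAi libraries, and the 2 clones share the WT libraries.

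An aminoacyl-tRNA synthetase joins an amino acid to its matching tRNA and so sets how the genetic code is read. The cytosolic enzymes feed the ribosomes of the cytosol, and the nuclear-encoded mitochondrial enzymes feed those of the mitochondrion. In animals GluProRS, which charges both glutamate and proline tRNAs, sits with IleRS, LeuRS, MetRS, GlnRS, LysRS, ArgRS and AspRS in a multi-synthetase complex held together by the AIMP scaffold proteins, whereas the other cytosolic enzymes act outside it. Many animals have no mitochondrial glutaminyl enzyme: GluRS-m loads glutamate on that tRNA and an amidotransferase converts it. Pumilio, the product of pum, binds elements in the 3' untranslated regions of mRNAs and represses them in part by recruiting CCR4-NOT, which removes poly(A) tails. Not1 is the scaffold of CCR4-NOT and Pop2 is one of its deadenylases.

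Whole reads of each library were reconstructed from the deposited group means, and the 3 libraries of a group are called A, B and C from the deepest to the shallowest. The genes that could be resolved held 1544234 (Not1 RNAi library C) to 7186603 reads (PumKO1 library A) per library, which was 52.1 to 67.6% of the normalized counts, and all 33 synthetase genes were resolved in all 21 libraries. Library C of LacZ RNAi and library C of Not1 RNAi stood apart: they correlated with the others of their group at 0.911 to 0.921 across genes, and ribosomal protein genes lay 1.66 and 1.36 (log2, median of 36 genes) above those other libraries. The cytosolic synthetase genes lay 0.39 (log2, median) above the other libraries in LacZ RNAi library C, and 0.11 above them in Not1 RNAi library C. Most results of the knockdowns are therefore given with all 12 libraries and also, where limma could fit the gene, with the 10 that leave out these 2. In the authors' deposited table, the targeted genes changed by -1.69 ± 0.39 (SE, adjusted p = 0.00575) for pum in Pum RNAi, -3.27 ± 0.18 (SE, adjusted p = 4.05e-72) for Not1 in Not1 RNAi, -4.34 ± 0.31 (SE, adjusted p = 1.6e-40) for Pop2 in Pop2 RNAi, -1.55 ± 0.071 (SE, adjusted p = 5.78e-103) for pum in PumKO1 and -0.51 ± 0.070 (SE, adjusted p = 1.47e-12) for pum in PumKO2, all log2. Some of these 3 genes also rose where they were not targeted, per the authors' deposited table. pum changed by 1.42 (adjusted p = 0.000771) in Not1 RNAi and Not1 by 0.75 (adjusted p = 0.000144) in Pop2 RNAi. Pop2 changed by 0.57 (adjusted p = 2.25e-11) in PumKO1 and 0.66 (adjusted p = 9.86e-15) in PumKO2. The other non-targeted cases were not called. Transcript of pum remained in both clones, and its level does not show the edit itself. Hemocyte markers were present in all 7 groups, at a summed level of 28455 normalized counts in Pum RNAi, 14894 in Not1 RNAi, 13663 in Pop2 RNAi and 26361 in LacZ RNAi, and of 30896 in PumKO1, 42132 in PumKO2 and 41249.9 in WT. Of these 17 markers, 7, 9, 8 and 7 reached 50 normalized counts in Pum, Not1, Pop2 and LacZ RNAi, and 10, 14 and 10 did in PumKO1, PumKO2 and WT. The sum was lower in Not1 RNAi and Pop2 RNAi. Per the authors' deposited table, however, 5 of the 17 were higher and 3 lower in Not1 RNAi, and 5 and 4 in Pop2 RNAi. Of all genes tested 25.7% were higher and 24.2% lower in Not1 RNAi, and 18.8% and 20.1% in Pop2 RNAi. Of 16 markers tested in the clones, 5 were higher and 10 lower in PumKO1, and 6 and 5 in PumKO2. Of all genes 22.9% were higher and 25.5% lower in PumKO1, and 21.3% and 23.5% in PumKO2. Epithelium markers (4 genes, all present) summed to 2796 in Pum RNAi, 5746 in Not1 RNAi, 4692 in Pop2 RNAi and 2321 in LacZ RNAi, and all 4 rose in Not1 RNAi and in Pop2 RNAi by the authors' deposited table. The list called neuron markers had 6 genes, among them repo, which marks glia, and 2 were at 50 or more normalized counts in each group. The 6 summed to 3208 in Pum RNAi, 13582 in Not1 RNAi, 5356 in Pop2 RNAi and 4395 in LacZ RNAi. Muscle markers (5 genes, 1 at 50 or more in each group) summed to 1343 in Pum RNAi, 2179.9 in Not1 RNAi, 1461 in Pop2 RNAi and 1251 in LacZ RNAi. Germline and gonad markers (7 genes, 2 or 3 at 50 or more) summed to 3456 in Pum RNAi, 4019 in Not1 RNAi, 5670.4 in Pop2 RNAi and 2596 in LacZ RNAi. Per the authors' deposited table, 2 neuron markers rose and 1 fell in Not1 RNAi, where 1 muscle marker rose and 1 germline marker rose and 1 fell. In Pop2 RNAi 2 germline markers rose and 1 fell, and 1 neuron marker fell. In PumKO1 1 epithelium marker rose and 1 fell, and in PumKO2 2 rose and 1 fell, with log2 fold changes down to -4.25 and -2.98. Muscle markers fell, 1 in PumKO1 and 2 in PumKO2. In each clone 2 germline markers rose and 1 fell, and 1 neuron marker rose. All 4 fat body markers were at 0 in WT and in the knockdown groups, and the part of cell state in the results below was not tested. In RNA from whole cultures, fewer cells that express a gene and less of its RNA per cell cannot be told apart.

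Cytosolic synthetase mRNAs were several times more abundant than mitochondrial ones when counts were divided by exon length. In WT cells the medians over genes were 322 normalized counts per kb for the 18 cytosolic genes and 64.1 for the 15 mitochondrial genes. In LacZ RNAi cells, normalized in a separate table, they were 229.8 and 44.8. ThrRS was the highest of all 33 in both groups, with 1282 ± 9.16 per kb in WT and 1011 ± 184 in LacZ RNAi (mean ± SD, n = 3 each). GlyRS (677 ± 93.8), AspRS (566 ± 8.29), AsnRS (544 ± 5.03), AlaRS (518 ± 10.0) and TrpRS (471 ± 23.0) followed in WT, each with all 3 libraries above those of the next. IleRS, SerRS, HisRS and GluProRS came next at 348 to 313 per kb and overlapped from neighbour to neighbour. Below them lay ValRS (278 ± 6.13), LysRS (237 ± 14.8) and GlnRS (216 ± 8.81), then ArgRS, CysRS, LeuRS and TyrRS, whose neighbours overlapped, at 186 to 161 per kb. MetRS, which also charges the initiator tRNA, was the lowest cytosolic gene at 92.3 ± 9.09 per kb in WT and 68.8 ± 4.48 in LacZ RNAi.

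Among the mitochondrial genes AspRS-m stood alone, at 844 ± 139.9 normalized counts per kb in WT and 515 ± 47.4 in LacZ RNAi (mean ± SD, n = 3 each), and only ThrRS was higher in each of those groups. PheRS-m, the mitochondrial phenylalanyl enzyme, had 258 ± 22.0 in WT and TrpRS-m had 193 ± 6.84, and no library of either overlapped the next gene. The other 12 lay between 78.1 per kb (CysRS-m) and 12.6 (ValRS-m) in WT. Neighbours in the order were separated by all 3 libraries at 11 of 17 steps among cytosolic genes and 5 of 14 among mitochondrial genes in WT, and at 2 of 17 and 1 of 14 in LacZ RNAi, so most of the order in LacZ RNAi is within the spread between libraries.

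The 33 genes are spread over arms 2L, 2R, 3L and 3R and chromosome X of the dm6 genome, and 16 of them share no stretch of the genome with another gene in the Ensembl BDGP6 annotation. No source used here says whether reads were assigned by strand, so 6 genes with sizeable overlaps carry a doubt. They are AspRS, of whose 2266 exon bases 1448 also belong to the antisense gene asRNA:CR45141, GluProRS (905 of 5453 with asRNA:CR46092), SerRS-m (356 of 2552 with Nagk), ArgRS-m (325 of 2748 with mRpS9), CysRS-m (302 of 2108 with CG13016) and, on the same strand, HisRS (255 of 2862 with Bx).

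Most synthetase mRNAs of both compartments were lower in Not1 RNAi than in LacZ RNAi cells, relative to the other genes of a library. Counts here and below are normalized to the other poly(A) RNA of a library, so a change shared by most mRNAs would not show. In poly(A) RNA, a change in tail length and one in mRNA amount cannot be told apart here. With a gene called changed where the adjusted p of the authors' deposited table was below 0.05, 13 of 18 cytosolic genes fell and 0 rose in Not1 RNAi against LacZ RNAi, where 24.2% of all genes tested fell and 25.7% rose. Of the 15 mitochondrial genes, 8 fell and 2 rose. The median log2 fold change per the authors' deposited table was -0.80 over the cytosolic genes and -0.78 over the mitochondrial genes, against 0.0075 over all genes tested. The shares of cytosolic and of mitochondrial genes that fell were above that background, while 0 rises among 18 was below it. Here and below, the background was not matched to the synthetase genes in abundance. Every Not1 RNAi library was below every LacZ RNAi library for 12 cytosolic and 8 mitochondrial genes (background 26.6%), and above for 0 and 1 (background 27.3%).

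GluProRS, the bifunctional enzyme of the complex (chromosome arm 3R, 23952136 to 23958391), had the deepest fall of the cytosolic genes. GluProRS had 279, 290.1 and 305 normalized counts in the Not1 RNAi libraries, against 1127, 1130.1 and 1050.0 in the LacZ RNAi libraries. No Not1 RNAi library came near the LacZ RNAi range, and the log2 fold change per the authors' deposited table was -1.93 ± 0.15 (SE, adjusted p = 5.23e-34), a 3.82-fold fall. IleRS, which charges isoleucine and proofreads against valine (chromosome arm 3L, 22288665 to 22292810), followed. IleRS had 223, 229.6 and 214 normalized counts in the Not1 RNAi libraries, against 683, 709.6 and 727 in the LacZ RNAi libraries. The 3 libraries of each group lay close together and far from the other group, with a log2 fold change of -1.66 ± 0.13 (SE, adjusted p = 4.59e-33) per the authors' deposited table.

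AsnRS (chromosome arm 2L, 19129469 to 19131954) changed by -1.38 ± 0.22 (log2 ± SE, adjusted p = 3.52e-09) per the authors' deposited table. AsnRS had 290.2, 305 and 441 normalized counts in the Not1 RNAi libraries, against 744, 764 and 1130.2 in the LacZ RNAi libraries. Library C was the highest in both groups, and the groups did not overlap. AspRS (chromosome arm 2R, 12877004 to 12883168), whose exons are shared in large part with an antisense gene, had 473, 478 and 288 normalized counts in Not1 RNAi, against 918, 1051 and 892 in LacZ RNAi, and a log2 fold change of -1.17 ± 0.18 (SE, adjusted p = 1.61e-09) per the authors' deposited table. GlyRS changed by -1.16 ± 0.26 (SE, adjusted p = 2.66e-05) and TrpRS by -1.10 ± 0.20 (SE, adjusted p = 1.87e-07) per the authors' deposited table. ThrRS, the most abundant of the family, had 1299, 1401 and 1787 normalized counts in Not1 RNAi, against 2496, 2766 and 3523 in LacZ RNAi, a change of -0.98 ± 0.18 (SE, adjusted p = 7.07e-07) per the authors' deposited table. The groups did not overlap for these 4 genes either. The other 6 that fell were GlnRS (-1.08), LeuRS (-0.82), SerRS (-0.79), ArgRS (-0.56), TyrRS (-0.54) and AlaRS (-0.41), all log2 fold changes of the authors' deposited table. Of these GlnRS is the least even, with 199, 228 and 474 normalized counts in Not1 RNAi, against 423, 391 and 1061 in LacZ RNAi: its groups overlapped, and the deviating libraries C held its highest value in each group. The 5 cytosolic genes that did not pass were ValRS (0.30), MetRS (0.11), CysRS (-0.27), HisRS (-0.39) and LysRS (-0.55) per the authors' deposited table.

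The mitochondrial genes ranged more widely. CysRS-m (chromosome arm 2R, 14159096 to 14161262) had the lowest fold change of all 33. CysRS-m had 37.9, 34.0 and 20.6 normalized counts in the Not1 RNAi libraries, against 115, 143 and 193 in the LacZ RNAi libraries. Its log2 fold change was -2.14 ± 0.28 (SE, adjusted p = 1.21e-13) per the authors' deposited table, a 4.40-fold fall. AspRS-m had 747, 725 and 511 normalized counts in the Not1 RNAi libraries, against 2324, 2462 and 2050.1 in the LacZ RNAi libraries. This gene, the most abundant of the mitochondrial ones (chromosome arm 2L, 16827078 to 16832093), was below its LacZ RNAi range in every library, at -1.76 ± 0.16 (log2 ± SE, adjusted p = 6.14e-28) per the authors' deposited table. ProRS-m had 24.2, 35.6 and 28.8 normalized counts in Not1 RNAi, against 69.9, 78.8 and 102 in LacZ RNAi, with -1.47 ± 0.30 (SE, adjusted p = 3.64e-06) per the authors' deposited table. ArgRS-m (-1.14), TyrRS-m (-0.87), SerRS-m (-0.79), IleRS-m (-0.79) and AsnRS-m (-0.78) also fell per the authors' deposited table, and IleRS-m did so although its Not1 RNAi and LacZ RNAi libraries overlapped. 2 genes went the other way. PheRS-m, with 252, 221 and 185 normalized counts in Not1 RNAi, against 130.0, 147 and 202 in LacZ RNAi, rose by 0.52 ± 0.20 (SE, adjusted p = 0.0235) per the authors' deposited table, although 1 library of each group crossed. LeuRS-m had 203, 165 and 280.0 normalized counts in Not1 RNAi, against 139.9, 137 and 161 in LacZ RNAi, without overlap, and rose by 0.51 ± 0.20 (SE, adjusted p = 0.0265) per the authors' deposited table. TrpRS-m, MetRS-m, ValRS-m, AlaRS-m and GluRS-m did not pass, with log2 fold changes from -0.49 to 0.12 per the authors' deposited table.

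Without the 2 libraries that stood apart, limma called 15 cytosolic genes lower and 1 higher, and 8 mitochondrial genes lower and 2 higher, at a background of 34.6% lower and 36.6% higher. Of the 23 genes called with all libraries, 22 were still called, and TyrRS-m was not, at -0.35 (adjusted p = 0.171). LysRS at -0.54 (adjusted p = 0.0144), HisRS at -0.29 (adjusted p = 0.0345) and TrpRS-m at -0.33 (adjusted p = 0.0270) were then called lower, and ValRS at 0.25 (adjusted p = 0.0456) higher. The median moved to -0.66 for cytosolic and -0.35 for mitochondrial genes. GluProRS, at -1.99 (adjusted p = 1.52e-10), and IleRS, at -1.62 (adjusted p = 5.93e-10), kept the size of their falls.

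**Figure D1:**
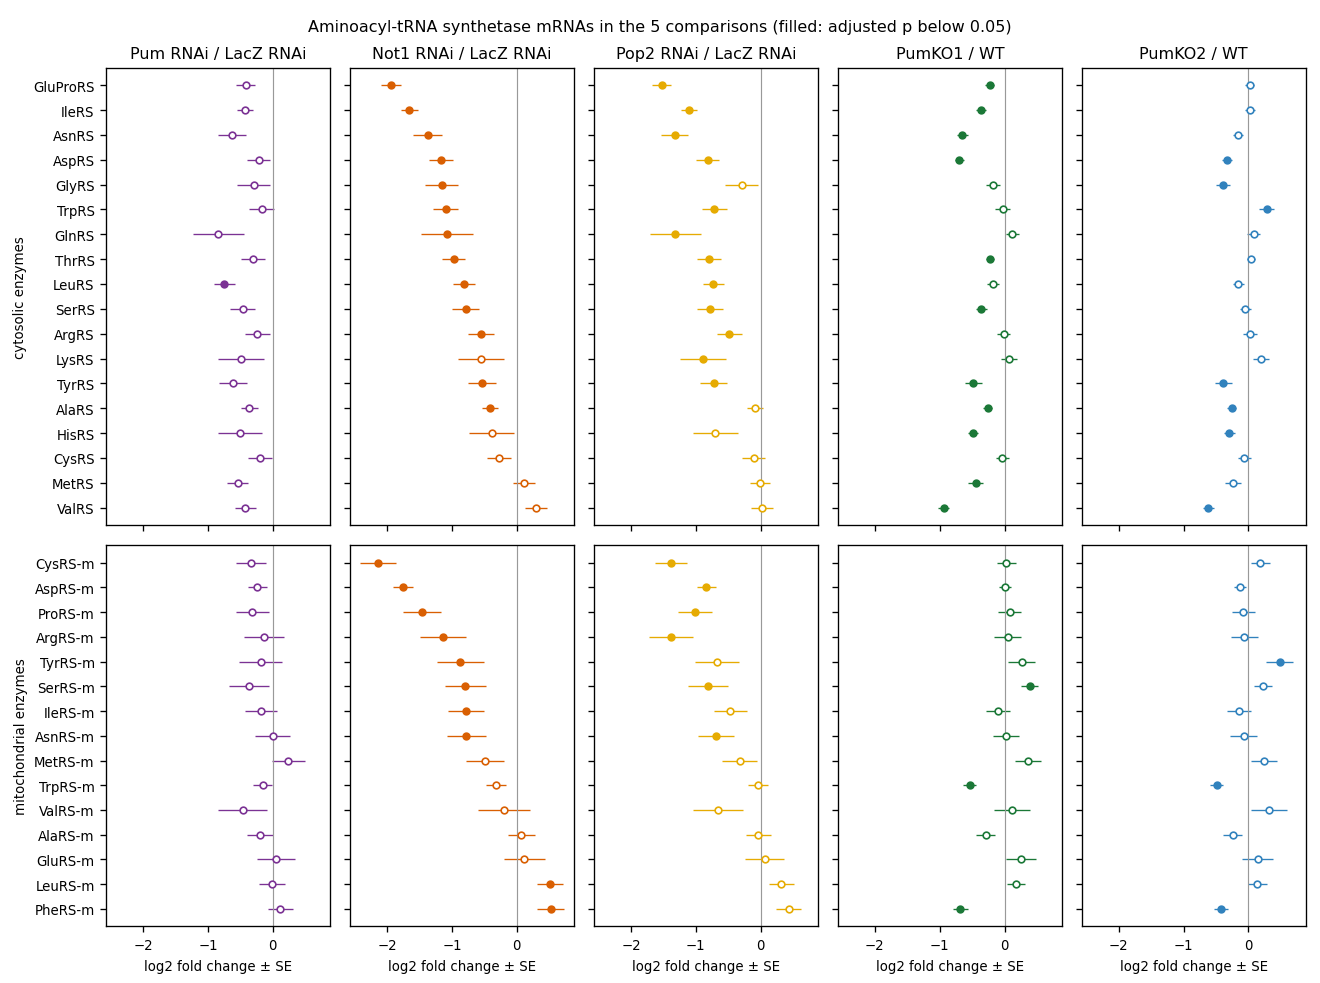
Log2 fold change (x axis, ± SE, from the authors' deposited table) of each of the 18 cytosolic (top) and 15 mitochondrial (bottom) genes in the 5 comparisons, filled where the adjusted p is below 0.05. Not1 RNAi and Pop2 RNAi have the widest ranges, down to -2.14 and -1.52, while the knockout clones stay between -0.94 and 0.49.

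In Pop2 RNAi cells most cytosolic synthetase mRNAs, and some of the mitochondrial ones, were lower than in LacZ RNAi cells. 12 of 18 cytosolic genes fell and 0 rose per the authors' deposited table, at a background of 20.1% of all genes lower and 18.8% higher, and 6 of 15 mitochondrial genes fell and 0 rose. Medians per the authors' deposited table were -0.73 and -0.66 for cytosolic and mitochondrial genes, against -0.053 over all genes tested. A difference between the classes was not tested, and the SE had a median of 0.19 over cytosolic and 0.27 over mitochondrial genes. Every Pop2 RNAi library was below every LacZ RNAi library for 13 cytosolic and 6 mitochondrial genes (background 26.3%), and above for 0 and 1 (background 28.6%). GluProRS had 343, 380.2 and 430.3 normalized counts in the Pop2 RNAi libraries, against 1127, 1130.1 and 1050.0 in the LacZ RNAi libraries. This gene again had the deepest fall, without overlap, at -1.52 ± 0.15 (SE, adjusted p = 3.41e-23) per the authors' deposited table. AsnRS had 301, 362 and 384 normalized counts in the Pop2 RNAi libraries, against 744, 764 and 1130.2 in the LacZ RNAi libraries. It changed by -1.33 ± 0.22 (SE, adjusted p = 1.17e-08) per the authors' deposited table, and every Pop2 RNAi library was below every control. IleRS had 346, 346 and 290.0 normalized counts in Pop2 RNAi, against 683, 709.6 and 727 in LacZ RNAi, with a log2 fold change of -1.10 ± 0.12 (SE, adjusted p = 2.74e-17) per the authors' deposited table.

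GlnRS, the glutaminyl enzyme of the complex, had 254, 246 and 250.2 normalized counts in Pop2 RNAi, against 423, 391 and 1061 in LacZ RNAi. The Pop2 RNAi libraries lay within a few counts of each other, whereas LacZ RNAi library C was far above the other controls, and the fold change of -1.32 ± 0.40 (SE, adjusted p = 0.00370) per the authors' deposited table compares with -0.70 (adjusted p = 1.36e-05) in limma without the 2 deviating libraries. LysRS moved likewise, with -0.89 ± 0.36 (SE, adjusted p = 0.0351) per the authors' deposited table and -0.49 (adjusted p = 0.0176) in that limma fit. The other cytosolic genes that fell were AspRS (-0.81), ThrRS (-0.80), SerRS (-0.79), LeuRS (-0.73), TrpRS (-0.72), TyrRS (-0.72) and ArgRS (-0.48), with log2 fold changes from the authors' deposited table. HisRS (-0.70), GlyRS (-0.29), CysRS (-0.11), AlaRS (-0.083), MetRS (-0.014) and ValRS (0.019) did not pass per the authors' deposited table.

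Among mitochondrial genes, CysRS-m had 49.1, 57.7 and 64.5 normalized counts in Pop2 RNAi, against 115, 143 and 193 in LacZ RNAi, a change of -1.38 ± 0.24 (SE, adjusted p = 1.6e-07) per the authors' deposited table. ArgRS-m, a low gene with 18.7, 21.3 and 17.1 normalized counts in Pop2 RNAi, against 45.3, 52.6 and 52.1 in LacZ RNAi, fell to the same degree, -1.38 ± 0.34 (SE, adjusted p = 0.000268) per the authors' deposited table. ProRS-m (-1.01), AspRS-m (-0.84), SerRS-m (-0.82) and AsnRS-m (-0.69) were the other 4 that fell per the authors' deposited table. PheRS-m (0.43) and LeuRS-m (0.32), the 2 genes that rose in Not1 RNAi, did not pass per the authors' deposited table, and TyrRS-m, ValRS-m, IleRS-m, MetRS-m, AlaRS-m, TrpRS-m and GluRS-m, from -0.67 to 0.066, did not either. Without the 2 deviating libraries limma called 13 cytosolic and 7 mitochondrial genes lower and 0 and 2 higher (background 31.7% lower and 33.2% higher). All 18 genes called with all libraries were among them. The additional calls were IleRS-m at -0.66 (adjusted p = 0.00230) and GlyRS at -0.42 (adjusted p = 0.0164), both lower, and PheRS-m at 0.60 (adjusted p = 0.000354) and LeuRS-m at 0.38 (adjusted p = 0.0130), both higher. Medians were then -0.50 and -0.37.

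**Figure D2:**
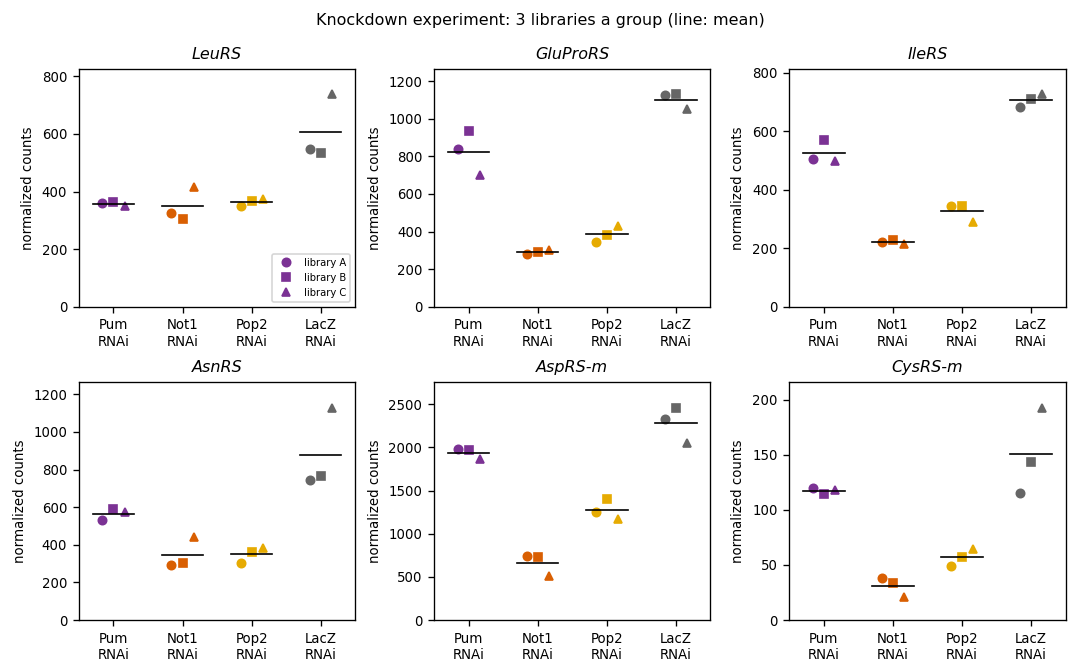
Normalized counts (y axis, linear from 0) of 6 synthetase genes in each library of the 4 knockdown groups, with the mean as a line and libraries A to C as different symbols. GluProRS and IleRS are lowest in Not1 RNAi, at 291 and 222 on average, and the triangles show that library C of LacZ RNAi is the highest control library for LeuRS, IleRS, AsnRS and CysRS-m and the lowest for GluProRS and AspRS-m.

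The fall of AspRS-m was deeper in Not1 RNAi than in Pop2 RNAi. Its 3 Not1 RNAi libraries lay between 511 and 747 normalized counts and its Pop2 RNAi libraries between 1175 and 1400.3, and the difference of the 2 log2 fold changes, Not1 RNAi minus Pop2 RNAi, was -0.92 (95% interval -1.35 to -0.50, Benjamini-Hochberg adjusted p = 0.00414, two-sided). It was the 1 gene of 33 that passed, where 0.729% of all genes were lower and 0.541% higher in Not1 RNAi. That test overstates the error, because both fold changes rest on the same LacZ RNAi libraries. A direct limma contrast of the knockdown groups, whose fold change rests on no control library although its estimate of the spread pools all groups, LacZ RNAi included, called IleRS and AspRS-m lower in Not1 RNAi with all libraries (background 2.7% lower and 2.49% higher) and 7 genes lower without the deviating libraries (background 14.9% lower and 16.6% higher). These 7 were AspRS-m at -0.79, CysRS-m at -0.65, GlyRS at -0.63, IleRS at -0.53, TrpRS at -0.43, GluProRS at -0.43 and ThrRS at -0.31. When 1 library of Not1 RNAi or Pop2 RNAi at a time was left out instead, limma called 0 to 2 genes different. The 7 calls therefore needed both deviating libraries left out, and LacZ RNAi library C enters this contrast only through the estimate of the spread. GlyRS had 562, 524 and 301 normalized counts in Not1 RNAi and 636, 933 and 1001 in Pop2 RNAi. Its Pop2 RNAi library A lay far below the other Pop2 RNAi libraries, and its difference of fold changes did not pass (95% interval -1.57 to -0.16, adjusted p = 0.290).

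In Pum RNAi cells 1 synthetase mRNA, LeuRS, passed the threshold. LeuRS (chromosome arm 2L, 3510328 to 3514656) charges leucine, and its human and yeast counterparts also report leucine to the growth kinase TOR. LeuRS had 362, 364 and 349 normalized counts in the Pum RNAi libraries, against 549, 532 and 738 in the LacZ RNAi libraries. The Pum RNAi libraries spanned 349 to 364 and no control came below 532, and the fall was 1.68-fold, a log2 change of -0.75 ± 0.16 (SE, adjusted p = 0.00308) per the authors' deposited table. It was the 1 cytosolic gene of 18 called lower per the authors' deposited table, where 0.221% of all genes were lower and 0.512% higher. 0 mitochondrial genes were called in either direction. At an unadjusted p below 0.05, the authors' DESeq2 test held 10 cytosolic and 0 mitochondrial genes among 782 in all. The 8596 genes with an adjusted p need not be all those with an unadjusted p, so no share of all genes is given. A difference between the classes was not tested, and the SE had a median of 0.19 over cytosolic and 0.25 over mitochondrial genes. In limma with all libraries 0 of the 33 were called at an adjusted p below 0.05, against 0.029% of all genes lower and 0.0725% higher. IleRS (-0.43 ± 0.12 SE, adjusted p = 0.0539) and MetRS (-0.54 ± 0.16 SE, adjusted p = 0.0689) came next per the authors' deposited table.

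All 18 cytosolic log2 fold changes per the authors' deposited table were below 0, from -0.84 (GlnRS) to -0.17 (TrpRS), where 52.3% of all genes tested were. The median was -0.43 over cytosolic and -0.18 over mitochondrial genes per the authors' deposited table, against -0.022 over all genes. These directions share the 3 control libraries and are not 18 separate observations. In 13 of 18 cytosolic and 2 of 15 mitochondrial genes every Pum RNAi library was below every LacZ RNAi library, which held for 10.2% of all genes in the fit, and 11.5% of them were above. AlaRS was among the genes lower in every library. AlaRS had 1047, 1132 and 1043 normalized counts in the Pum RNAi libraries, against 1292, 1418 and 1432 in the LacZ RNAi libraries. MetRS had 161, 172 and 146 normalized counts in Pum RNAi, against 228, 223 and 252 in LacZ RNAi, and IleRS had 506, 571 and 499 in Pum RNAi, against 683, 709.6 and 727 in LacZ RNAi.

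Without the 2 deviating libraries limma called 6 cytosolic genes lower in Pum RNAi and 0 higher, and 0 mitochondrial genes, at a background of 3.97% lower and 4.39% higher. They were LeuRS at -0.59 (adjusted p = 0.00124), MetRS at -0.50 (adjusted p = 0.0208), GluProRS at -0.46 (adjusted p = 0.0228), AsnRS at -0.42 (adjusted p = 0.0236), IleRS at -0.41 (adjusted p = 0.0245) and AlaRS at -0.34 (adjusted p = 0.0318). The cytosolic median was then -0.29, and all 18 stayed below 0. GlnRS, LysRS and HisRS, whose values in LacZ RNAi library C were the highest of the knockdown experiment, were at -0.23, -0.074 and -0.027 in this fit and at -0.84, -0.49 and -0.50 per the authors' deposited table. The mitochondrial genes ranged from -0.42 to 0.44. When 1 library of Pum RNAi or LacZ RNAi at a time was left out instead, limma called 0 cytosolic genes lower. The 6 calls therefore needed both deviating libraries left out. Not1 RNAi library C is in neither group of this comparison and enters it only through the pooled estimate of the spread.

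**Figure D3:**
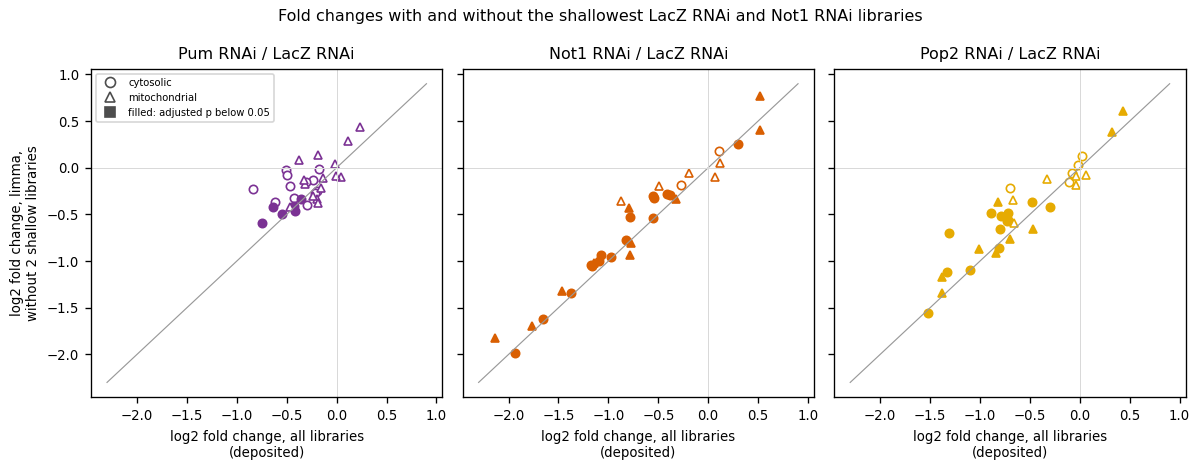
Log2 fold change from limma without the 2 deviating libraries (y axis) against that of the authors' deposited table with all libraries (x axis) for the 33 genes in each knockdown, cytosolic as circles and mitochondrial as triangles, filled where limma's adjusted p is below 0.05. In Pum RNAi the filled points are the 6 cytosolic genes named in the text, between -0.59 and -0.34.

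Both pum knockout clones had lower levels of several cytosolic synthetase mRNAs. In PumKO1 11 of 18 cytosolic genes fell and 0 rose against WT per the authors' deposited table, at a background of 25.5% lower and 22.9% higher, and 2 of 15 mitochondrial genes fell and 1 rose. In PumKO2 6 cytosolic genes fell and 1 rose per the authors' deposited table, at a background of 23.5% lower and 21.3% higher, and 2 mitochondrial genes fell and 1 rose. The share of cytosolic genes that fell was above the background in PumKO1 and nearer to it in PumKO2, and the mitochondrial shares were below it in both. Cytosolic medians per the authors' deposited table were -0.24 in PumKO1 and -0.11 in PumKO2, and mitochondrial medians 0.047 and -0.061, against -0.068 and -0.039 over all genes. A difference between the classes was not tested, and the SE had a median of 0.089 over cytosolic and 0.18 over mitochondrial genes in PumKO1, and of 0.089 and 0.18 in PumKO2.

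ValRS (chromosome arm 2R, 13198850 to 13202709), which charges valine and proofreads against threonine, fell most in both clones. It had 488, 498 and 499.5 normalized counts in PumKO1 and 566, 622 and 669.9 in PumKO2, against 964, 957 and 925 in WT. No knockout library reached the WT range, and per the authors' deposited table the log2 fold change was -0.94 ± 0.086 (SE, adjusted p = 1.3e-26) in PumKO1 and -0.62 ± 0.086 (SE, adjusted p = 5.02e-12) in PumKO2, that is 1.92-fold and 1.54-fold lower. AspRS had 787, 795 and 796 normalized counts in PumKO1 and 945, 1024 and 1084 in PumKO2, against 1291, 1296 and 1261 in WT. The 3 groups were separate, with -0.70 ± 0.076 (SE, adjusted p = 4.11e-19) in PumKO1 and -0.34 ± 0.075 (SE, adjusted p = 3.54e-05) in PumKO2 per the authors' deposited table. HisRS (-0.49 in PumKO1 and -0.30 in PumKO2), TyrRS (-0.48 in PumKO1 and -0.39 in PumKO2) and AlaRS (-0.26 in PumKO1 and -0.26 in PumKO2) also fell in both clones per the authors' deposited table. AlaRS had nearly equal fold changes in the clones. It had 1450.2, 1502 and 1319.6 normalized counts in PumKO1 and 1444, 1459 and 1375 in PumKO2, against 1729, 1667 and 1717 in WT.

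Called lower in PumKO1 and not in PumKO2 were AsnRS (-0.65 ± 0.078 SE, adjusted p = 1e-15), MetRS (-0.45), IleRS (-0.36 ± 0.076 SE, adjusted p = 6.96e-06), SerRS (-0.36), GluProRS (-0.23) and ThrRS (-0.22), per the authors' deposited table. In PumKO2 the same 6 had -0.17, -0.24, 0.020, -0.048, 0.021 and 0.036 per the authors' deposited table, none of which passed. limma, however, called AsnRS (-0.17, adjusted p = 0.0485) and MetRS (-0.24, adjusted p = 0.0379) lower in PumKO2 as well, and for MetRS the difference between the clones did not pass (adjusted p = 0.757). GlyRS was called lower in PumKO2, with -0.39 ± 0.11 (SE, adjusted p = 0.00187) against -0.18 in PumKO1, per the authors' deposited table. GlyRS had 1694, 1646 and 1219.5 normalized counts in the PumKO1 libraries, against 1998, 1567 and 1605 in the WT libraries, so that library C of PumKO1 was below WT and library A was not. TrpRS was the 1 cytosolic gene that rose, by 0.28 ± 0.12 (SE, adjusted p = 0.0365) in PumKO2 per the authors' deposited table, with 872, 1009 and 1013 normalized counts in PumKO2, against 831, 754 and 791 in WT. LeuRS, the gene that fell in Pum RNAi, had 628, 648 and 578 in PumKO1 and 639, 619 and 632 in PumKO2, against 756, 693 and 652 in WT. Every LeuRS library of both clones was below every WT library, but the adjusted p was 0.0792 in PumKO1 and 0.152 in PumKO2 per the authors' deposited table, with log2 fold changes of -0.18 and -0.16, while limma called it lower in PumKO1 (-0.18, adjusted p = 0.0435). ArgRS, CysRS, GlnRS and LysRS passed in neither clone, between -0.067 and 0.19 per the authors' deposited table.

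Of the mitochondrial genes, PheRS-m and TrpRS-m fell in both clones. PheRS-m (chromosome arm 2R, 13968308 to 13969902) had 237, 242 and 259 normalized counts in PumKO1 and 295, 278 and 307 in PumKO2, against 356, 422 and 403 in WT. Its log2 changes were -0.68 ± 0.11 (SE, adjusted p = 8.14e-09) in PumKO1 and -0.42 ± 0.11 (SE, adjusted p = 0.00064) in PumKO2 per the authors' deposited table. TrpRS-m had 322, 338 and 324 in PumKO1 and 352, 323 and 347 in PumKO2, against 490.2, 458 and 484 in WT, with -0.54 ± 0.099 (SE, adjusted p = 2.52e-07) in PumKO1 and -0.49 ± 0.10 (SE, adjusted p = 6.76e-06) in PumKO2 per the authors' deposited table. Neither gene had a knockout library within the WT range. SerRS-m rose in PumKO1 by 0.39 ± 0.13 (SE, adjusted p = 0.00840) per the authors' deposited table, with 251, 237 and 217 normalized counts in PumKO1, against 163, 182 and 198 in WT. TyrRS-m rose in PumKO2 by 0.49 ± 0.21 (SE, adjusted p = 0.0446) per the authors' deposited table, with 95.7, 104 and 145 normalized counts in PumKO2, against 65.8, 83.9 and 97.4 in WT. The TyrRS-m groups overlapped, and this call was lost when p was adjusted again over every gene with a deposited p. The other 11 mitochondrial genes passed in neither clone per the authors' deposited table, although limma called AlaRS-m lower (-0.29, adjusted p = 0.0303) and MetRS-m higher (0.37, adjusted p = 0.0489) in PumKO1, and AspRS-m, the most abundant, had 0.013 in PumKO1 and -0.13 in PumKO2 per the authors' deposited table. In PumKO1 every library was below WT for 12 cytosolic and 3 mitochondrial genes and above it for 1 and 1, at a background of 33.9% below and 33.4% above. In PumKO2 the counts were 9 and 3 below and 1 and 1 above, at a background of 33.9% below and 32.1% above.

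**Figure D4:**
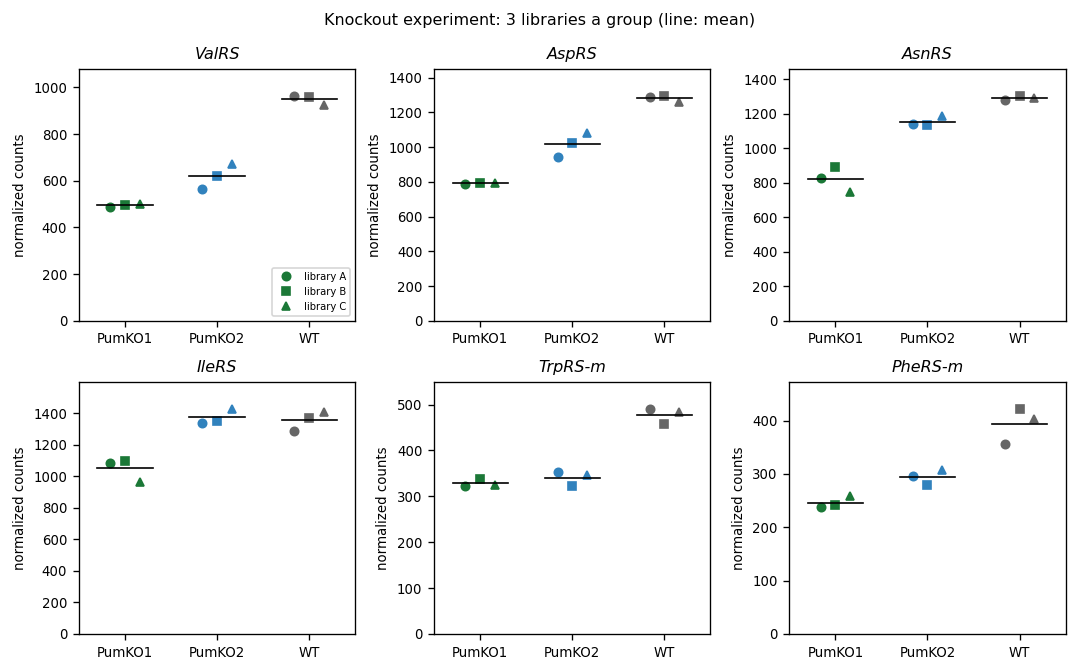
Normalized counts (y axis, linear from 0) of 6 synthetase genes in each library of PumKO1, PumKO2 and WT, with the mean as a line and libraries A to C as different symbols. ValRS, AspRS, TrpRS-m and PheRS-m are below WT in all 6 knockout libraries, whereas IleRS averages 1050.0 in PumKO1 and 1374 in PumKO2, against 1355 in WT.

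The clones differed from each other in AsnRS, IleRS, AspRS and ThrRS. All 4 were lower in PumKO1 than in PumKO2. AsnRS had 828, 890.4 and 747 normalized counts in PumKO1 and 1138, 1132 and 1184 in PumKO2, with 1279.8, 1304 and 1294 in WT. IleRS had 1085, 1098 and 967 in PumKO1 and 1340.2, 1353 and 1428 in PumKO2, with 1289.7, 1368 and 1407 in WT. The PumKO2 libraries overlapped WT for IleRS and lay just below WT for AsnRS, and the PumKO1 libraries were below both for each gene. PumKO1 minus PumKO2 (log2 fold change in one clone less that in the other, two-sided, Benjamini-Hochberg adjustment over all genes) was -0.48 (95% interval -0.70 to -0.27, adjusted p = 0.000394) for AsnRS, -0.38 (95% interval -0.59 to -0.17, adjusted p = 0.00708) for IleRS, -0.36 (95% interval -0.57 to -0.15, adjusted p = 0.0138) for AspRS and -0.26 (95% interval -0.42 to -0.100, adjusted p = 0.0242) for ThrRS. In this test 4.4% of all genes were lower in PumKO1 and 2.95% higher, and sharing WT makes it overstate the error. The direct limma contrast between the clones called 9 synthetase genes lower in PumKO1 and 0 higher, where 12.6% of all genes were lower and 11.2% higher. Besides those 4 they were ValRS (-0.32, adjusted p = 0.00286), SerRS (-0.31, 0.00389), GluProRS (-0.25, 0.00936), TrpRS (-0.34, 0.0220) and PheRS-m (-0.26, 0.0427). pum itself was at -1.55 in PumKO1 and -0.51 in PumKO2 (log2, per the authors' deposited table), and hemocyte markers summed to fewer counts in PumKO1 than in PumKO2. Their part in these differences was not tested.

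**Figure D5:**
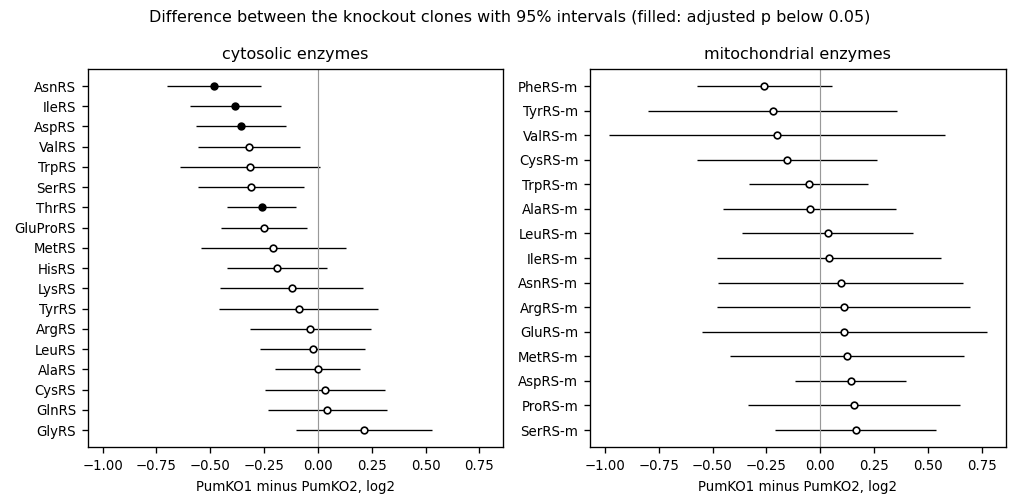
PumKO1 minus PumKO2 (x axis, difference of log2 fold changes with 95% intervals) for each cytosolic (left) and mitochondrial (right) gene, filled where the adjusted p is below 0.05. The 4 filled points, from -0.48 (AsnRS) to -0.26 (ThrRS), are all cytosolic.

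For the 12 amino acids with both enzymes, the cytosolic gene had the lower log2 fold change of the pair in 5 pairs in Not1 RNAi, 6 in Pop2 RNAi and 9 in Pum RNAi, and in 10 in PumKO1 and 9 in PumKO2, from the authors' deposited table. The median of cytosolic minus mitochondrial was 0.17, -0.012 and -0.13 in Not1, Pop2 and Pum RNAi, and -0.51 and -0.23 in PumKO1 and PumKO2. In limma without the deviating libraries the cytosolic gene was the lower one in 6, 6 and 8 pairs of Not1, Pop2 and Pum RNAi, with medians of -0.037, -0.046 and -0.075, so that the sign for Not1 RNAi turned. The pair for valine was furthest apart in both clones, at -1.05 in PumKO1 and -0.93 in PumKO2. The tryptophan pair went the other way there, at 0.51 and 0.77, since TrpRS-m fell and TrpRS did not. These are descriptions without a test. The 8 genes of the multi-synthetase complex, a grouping made after the values were seen, included 6 that fell in Not1 RNAi, 7 in Pop2 RNAi, 1 in Pum RNAi, 4 in PumKO1 and 1 in PumKO2 per the authors' deposited table. Of the 10 other cytosolic genes, 7, 5 and 0 fell in Not1, Pop2 and Pum RNAi and 7 and 5 in PumKO1 and PumKO2. Of all genes tested 24.2, 20.1 and 0.221% fell in Not1, Pop2 and Pum RNAi and 25.5 and 23.5% in PumKO1 and PumKO2, so the 1 of 8 in PumKO2 is below that share. Without the deviating libraries limma called 7 of the 8 and 8 of the 10 lower in Not1 RNAi, 7 and 6 in Pop2 RNAi, and 4 and 2 in Pum RNAi. That fit called 34.6, 31.7 and 3.97% of all genes lower in Not1, Pop2 and Pum RNAi.

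The partners of the family moved in more than 1 way. The cytosolic phenylalanyl enzyme is made of separate subunits that the name rule does not reach. Its alpha-PheRS subunit had 217, 221 and 214 normalized counts in Not1 RNAi and 218, 223 and 247 in Pop2 RNAi, against 274, 346 and 354 in LacZ RNAi. In the authors' deposited table it fell in both knockdowns, with log2 fold changes of -0.57 ± 0.17 (SE, adjusted p = 0.00241) in Not1 RNAi and -0.49 ± 0.16 (SE, adjusted p = 0.00831) in Pop2 RNAi but rose in PumKO1 (0.35 ± 0.099 SE, adjusted p = 0.00144) and PumKO2 (0.24 ± 0.10 SE, adjusted p = 0.0445). The beta-PheRS subunit was called in none of the 5 comparisons of the authors' deposited table, from -0.42 to 0.18. Of the 3 scaffold genes of the complex, AIMP1 fell in Not1 RNAi (adjusted p = 0.0120) and Pop2 RNAi (-1.19 ± 0.35 SE, adjusted p = 0.00304) per the authors' deposited table, and its counts of 204, 197 and 383 in Not1 RNAi overlapped the 405, 319.8 and 818 of LacZ RNAi. AIMP3 rose in PumKO1 and PumKO2 by 0.25 and 0.24 per the authors' deposited table, and AIMP2 was not called. Without the deviating libraries limma called AIMP1 lower in Not1 RNAi (-0.84) and Pop2 RNAi (-0.69) and AIMP3 higher in Not1 RNAi (0.71) and Pop2 RNAi (0.39), and beta-PheRS lower in Pop2 RNAi (-0.45). The amidotransferase subunit GatA, which works on the product of GluRS-m, fell in both knockdowns, with log2 fold changes of -0.88 ± 0.28 (SE, adjusted p = 0.00499) in Not1 RNAi and -0.74 ± 0.26 (SE, adjusted p = 0.0135) in Pop2 RNAi per the authors' deposited table, and was at -0.79 in Not1 RNAi and -0.72 in Pop2 RNAi without the deviating libraries. Slimp, a relative of SerRS-m that has lost charging activity in Drosophila, was called in none of the comparisons of the authors' deposited table, and limma without the deviating libraries called it higher in Not1 RNAi (0.45, adjusted p = 0.0255).

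Charged tRNAs are carried to the ribosome by eEF1alpha, whose exchange factor subunits reload it, and the list of cytosolic elongation factors also holds eEF2 and eEF5, which carry no tRNA. Of 7 cytosolic factors 5 fell in Not1 RNAi and 6 in Pop2 RNAi per the authors' deposited table, while 4 rose and 2 fell in PumKO1 and 6 rose and 1 fell in PumKO2. Of all genes 24.2% fell in Not1 RNAi and 20.1% in Pop2 RNAi, while 22.9% rose and 25.5% fell in PumKO1 and 21.3% rose and 23.5% fell in PumKO2. In Not1 RNAi eEF1alpha1 (mean of 43544 normalized counts in Not1 RNAi and 87375 in LacZ RNAi, adjusted p = 0.0630) and eEF1alpha2 (log2 fold change 0.83, adjusted p = 0.548) did not pass per the authors' deposited table. An example is eEF1delta, an exchange factor subunit, with -1.71 ± 0.24 (SE, adjusted p = 6.95e-12) in Not1 RNAi, -1.05 ± 0.24 (SE, adjusted p = 5.85e-05) in Pop2 RNAi, 0.75 ± 0.072 (SE, adjusted p = 3.72e-24) in PumKO1 and 0.45 ± 0.072 (SE, adjusted p = 3.73e-09) in PumKO2 per the authors' deposited table. All 4 mitochondrial factors fell in Not1 RNAi and Pop2 RNAi per the authors' deposited table, and 2 rose in each clone. mEFTu1, which delivers charged tRNA in mitochondria, had 1835, 1799.8 and 1935 normalized counts in PumKO1 and 1922, 1893 and 2022 in PumKO2, against 1175, 1194 and 1239 in WT, and rose by 0.63 ± 0.068 (SE, adjusted p = 2.49e-19) in PumKO1 and 0.69 ± 0.068 (SE, adjusted p = 3.71e-23) in PumKO2 per the authors' deposited table. In Not1 RNAi it had 721, 782 and 638 and in Pop2 RNAi 748, 793 and 974, against 1091, 1003 and 1523 in LacZ RNAi. Without the deviating libraries limma still called all 4 mitochondrial factors lower in both knockdowns, and could test 1 cytosolic factor, eEF1delta, which was lower in both. Of 4 tRNA processing genes 3 fell in Not1 RNAi, among them La, which binds the ends of new tRNA transcripts (-1.45 ± 0.31 SE, adjusted p = 1.71e-05), 1 fell in Pop2 RNAi, RNaseZ, which trims the tRNA 3' end (-0.94 ± 0.14 SE, adjusted p = 5.79e-10), and 3 rose in each clone per the authors' deposited table. Without the deviating libraries limma called 3 of the tRNA processing genes lower in Not1 RNAi and 3 in Pop2 RNAi. Of all genes 34.6% and 31.7% were lower in that fit.

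AsnS, which makes asparagine, the substrate of AsnRS, fell further than any of the 33 genes in Not1 RNAi and in Pop2 RNAi. It had 40.9, 53.9 and 57.7 normalized counts in Not1 RNAi and 62.2, 65.3 and 92.9 in Pop2 RNAi, against 407, 452 and 549 in LacZ RNAi. The log2 changes were -3.25 ± 0.23 (SE, adjusted p = 1.39e-41) in Not1 RNAi and -2.68 ± 0.21 (SE, adjusted p = 6.13e-35) in Pop2 RNAi per the authors' deposited table, against -3.18 in Not1 RNAi and -2.56 in Pop2 RNAi in limma without the deviating libraries. crc, the Drosophila ATF4, is a transcription factor of the amino acid stress response, and both AsnS and many synthetase genes are among the known targets of ATF4 in mammals. Whether crc had a part in the changes of AsnS or of the synthetase genes was not tested. crc had 805, 769 and 959.5 in Not1 RNAi and 1009.7, 908 and 837 in Pop2 RNAi, against 2082, 2334 and 3588 in LacZ RNAi, and changed by -1.66 ± 0.22 (SE, adjusted p = 1.86e-13) in Not1 RNAi and -1.54 ± 0.21 (SE, adjusted p = 1.63e-11) in Pop2 RNAi per the authors' deposited table. In limma without those libraries crc was at -1.49 in Not1 RNAi and -1.27 in Pop2 RNAi. In the knockout experiment crc had 2532, 2467 and 2599.8 in PumKO1 and 4161, 4176 and 4377 in PumKO2, against 3969, 4097 and 4397 in WT. It fell in PumKO1 (-0.71 ± 0.062 SE, adjusted p = 1.18e-29) and was not called in PumKO2 (0.029 ± 0.061 SE, adjusted p = 0.741) per the authors' deposited table. Other genes of the same list of 18 went the opposite way. PPP1R15, a subunit of the phosphatase that ends the stress signal, rose by 1.59 ± 0.14 (SE, adjusted p = 4.29e-29) in Not1 RNAi and 1.16 ± 0.14 (SE, adjusted p = 7.07e-16) in Pop2 RNAi per the authors' deposited table. Gclc, of glutathione synthesis, rose by 1.29 ± 0.16 (SE, adjusted p = 1.03e-14) in Not1 RNAi and 1.24 ± 0.16 (SE, adjusted p = 8.83e-14) in Pop2 RNAi and fell in PumKO1 (-1.55 ± 0.092 SE, adjusted p = 1.07e-61) and PumKO2 (-1.62 ± 0.094 SE, adjusted p = 5.31e-64) per the authors' deposited table. PPP1R15, without those libraries, was at 1.51 in Not1 RNAi and 1.06 in Pop2 RNAi, and Gclc at 1.08 in Not1 RNAi and 1.11 in Pop2 RNAi. Of the 16 genes of that list tested, 6 rose and 4 fell in Not1 RNAi, 4 rose and 5 fell in Pop2 RNAi, 0 rose or fell in Pum RNAi, 3 rose and 8 fell in PumKO1, and 2 rose and 7 fell in PumKO2 per the authors' deposited table. Of all genes, 25.7% were higher and 24.2% lower in Not1 RNAi, and 18.8% and 20.1% in Pop2 RNAi. The 4 of 16 that fell in Not1 RNAi are at that background. In PumKO1 22.9% of all genes were higher and 25.5% lower, and in PumKO2 21.3% and 23.5%. With the deviating libraries left out limma tested 15 of the list. It called 6 higher and 5 lower in Not1 RNAi, 6 and 6 in Pop2 RNAi, and 0 and 1 in Pum RNAi. The 1 in Pum RNAi was the kinase gene PEK at -0.31 (adjusted p = 0.0433). That fit called 36.6% of all genes higher and 34.6% lower in Not1 RNAi, 33.2% and 31.7% in Pop2 RNAi, and 4.39% and 3.97% in Pum RNAi. Of 7 growth regulators, 6 of which were tested in the knockdowns, 4 rose in Not1 RNAi and 3 in Pop2 RNAi, 4 fell in PumKO1 and 3 in PumKO2, and 0 were called in Pum RNAi per the authors' deposited table. With those libraries left out limma called 4 higher and 1 lower in Not1 RNAi, 4 and 1 in Pop2 RNAi, and 0 and 2 in Pum RNAi, where the background was 36.6% higher and 34.6% lower, 33.2% and 31.7%, and 4.39% and 3.97%. The growth kinase gene Tor rose in Not1 RNAi (1.62 ± 0.17 SE, adjusted p = 1.26e-19) and Pop2 RNAi (0.89 ± 0.17 SE, adjusted p = 2.05e-06) per the authors' deposited table, and without the deviating libraries it was at 1.39 in Not1 RNAi, 0.78 in Pop2 RNAi and -0.49 (adjusted p = 0.0104) in Pum RNAi. Myc, a driver of ribosome and tRNA synthesis, was not called in the knockdowns of the authors' deposited table, where it had -0.93 in Not1 RNAi and -0.91 in Pop2 RNAi. Without the deviating libraries limma gave Myc -1.37 (adjusted p = 9.03e-09) in Not1 RNAi, -0.55 (adjusted p = 0.000263) in Pop2 RNAi and -0.39 (adjusted p = 0.0369) in Pum RNAi.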

How the data were processed

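The submitters' processing notes name fastp 0.14.1, HISAT2 2.1.0, UMI-tools 1.0.1, featureCounts and DESeq2 with the genome build dm6. The authors deposited 2 tables, 1 for the 12 knockdown and 1 for the 9 knockout samples, normalized separately. The deposited signal columns hold group means of normalized counts and the same per kb, per the file headers. In the deposited log2 columns are the authors' fold changes against the control with their SE, and the deposited p-value columns the two-sided Wald p and its adjusted value. These are the main test, at 0.05, and each fold is 2 to the power of the log2 value. Lines without a gene (7 per table, 0.0448 and 0.0669% of normalized counts) were left out.

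Whole reads per library were found as the triples of whole numbers that give the deposited means, and tested on simulated data. They carry no replicate numbers. limma 3.58.1 (R 4.3.3) was fitted with a mean-variance trend to log2(reads over size factor + 0.5) of genes resolved in every library with a mean of at least 10 (6900 knockdown and 7190 knockout genes), with Benjamini-Hochberg adjustment over all of them. Fold changes on this scale understate changes of low genes. Differences between comparisons were the difference of deposited log2 values over the root of the summed squared SE. Alternatives were a new adjustment, a mean filter of 50, centring on the median gene, limma with other scaling, library weights or libraries left out. The lists of related genes and the enzyme pairs under limma without the deviating libraries were added after seeing the data. The lowest synthetase count in a library was 2 reads, which limits the precision of the rarest genes.

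The genes, the lists of partners and the alternatives were chosen with earlier results of these data known. All 33 genes are named, with full statistics mainly for those past 0.05, and of each list up to 4 genes by smallest p, with Myc in Not1 RNAi, crc in PumKO2, PEK and Tor in Pum RNAi and the eEF1alpha genes named beyond them after their values were seen. A search for sequence motifs was not run, because no sequences were used here. p-values measure the spread between samples, which for the clones are samples of 1 isolate each.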

Additional observations from a re-analysis of the deposited data

Results flagged for a closer look

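4 genes had effects in the 2 clones that differed by the test of the difference itself, PumKO1 minus PumKO2 on the log2 scale. AsnRS differed by -0.48, IleRS by -0.38, AspRS by -0.36 and ThrRS by -0.26, with adjusted p of 0.000394, 0.00708, 0.0138 and 0.0242. In the authors' deposited table the log2 fold changes behind them were -0.65 and -0.17 for AsnRS, -0.36 and 0.020 for IleRS, -0.70 and -0.34 for AspRS and -0.22 and 0.036 for ThrRS, with PumKO1 before PumKO2. All 3 PumKO1 libraries were below all 3 PumKO2 libraries for each of the 4. These genes were picked by a test on the same libraries, so the lack of overlap adds no separate support. The share of all genes without overlap between the clones was not counted. The direct limma contrast gave -0.49, -0.39, -0.36 and -0.26. Each clone is 1 isolate, so a difference between isolates and one between degrees of pum loss cannot be told apart.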

How the results depend on the processing

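No paired analysis was possible because the deposited columns are group means and the reconstructed libraries carry no replicate numbers. For Pum RNAi the 1 cytosolic gene called lower became 2 among genes averaging 50 or more normalized counts, 0 in limma with all libraries and 0 with total scaling. It became 12 with library quality weights and 6 without the deviating libraries. The share of all genes called under the filter of 50 is not given here. With quality weights 3 mitochondrial genes were lower and 2 higher, where 13.6% of all genes were lower and 15.3% higher. The mitochondrial median was -0.055 with quality weights, -0.049 with total scaling and -0.11 without the deviating libraries. For Not1 RNAi 1 cytosolic gene was called higher with quality weights and 1 without the deviating libraries, and 0 mitochondrial genes were higher with total scaling. Of all genes 39.8% were higher with quality weights, 36.6% without the deviating libraries and 20.8% with total scaling. The mitochondrial median was -0.48 with quality weights and -0.35 without those libraries. For Pop2 RNAi the cytosolic median was -0.47 with quality weights and -0.50 without the deviating libraries, and the mitochondrial median -0.50 and -0.37. Under quality weights 10 mitochondrial genes were lower, and 1 (relative to the median gene), 2 (quality weights) and 2 (without the deviating libraries) were higher. Of all genes 34.4% were lower and 36.4% higher with quality weights, and 33.2% higher without the deviating libraries.

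For PumKO1 the cytosolic median was -0.18 relative to the median gene. In limma 2 mitochondrial genes were higher with all libraries, with quality weights and with total scaling, where 32.4, 35 and 34.1% of all genes were. For PumKO2 the cytosolic median was -0.072 relative to the median gene and -0.061 with total scaling. After a new adjustment without filter 0 mitochondrial genes were higher. With quality weights 2 were higher and with total scaling 2, where 32.5 and 33.5% of all genes were. Genes that differed between Not1 RNAi and Pop2 RNAi numbered 2 in limma with all libraries, 10 with quality weights, 2 with total scaling and 7 without the deviating libraries. Of all genes 5.19, 41.8, 5.1 and 31.5% differed in these fits. Those that differed between the clones numbered 9, 13 and 9 in limma with all libraries, quality weights and total scaling. The shares of all genes were 23.8, 34.9 and 23.6%, so these counts are near the background. The cause of these changes was not tested. Total scaling moved the median of all genes to -0.20 in Not1 RNAi and 0.12 in Pum RNAi. No cytosolic median changed sign under any alternative run.

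With 1 library left out in turn (limma), Pum RNAi had 0 to 0 cytosolic genes lower and a mitochondrial median of -0.14 to -0.097. Not1 RNAi had 0 to 1 cytosolic and 0 to 2 mitochondrial genes higher, a cytosolic median of -0.90 to -0.54 and a mitochondrial median of -0.77 to -0.43. Pop2 RNAi had 0 to 1 mitochondrial genes higher, a cytosolic median of -0.83 to -0.50 and a mitochondrial median of -0.57 to -0.37. PumKO1 had 1 to 2 mitochondrial genes higher, and PumKO2 0 to 2 cytosolic and 0 to 4 mitochondrial genes higher, with a mitochondrial median of -0.074 to 0.028. Between Not1 RNAi and Pop2 RNAi 0 to 2 genes differed, and between the clones 6 to 9. The shares of all genes called in these left-out fits are not given here. With all libraries, limma called 27.6% of all genes higher in Not1 RNAi, 20.5% in Pop2 RNAi, 32.4% in PumKO1 and 30% in PumKO2. Single genes were also followed under the alternatives other than left-out libraries. Of their values, 1001 kept their side of the threshold, 58 came to pass it and 14 no longer passed. While called, 0 changed sign, but some that were not called did. SerRS-m in Pum RNAi, for example, had -0.37 per the authors' deposited table and 0.082 in limma without the deviating libraries.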
